A study of Mus musculus with 6 samples.

Results

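Plexins, semaphorins and neuropilins form a ligand and receptor system, and 10 of its genes are described here: the plexins Plxnd1, Plxna1, Plxna2, Plxnb2 and Plxnc1, the semaphorins Sema3e, Sema4a, Sema4d and Sema7a, and the neuropilin Nrp1. They were chosen by name from both families with their array signals and the differences between the genotypes known, so their values in that contrast are a description. No p-value is given for them. The counts of members called in the fit over all genes, or with groups that do not overlap, support nothing about them. Each gene was read from its brightest probe set annotated to that gene alone, by the mean of 6 arrays, and all 10 members were found among the 22180 genes measured, with 11 of the 41345 probe sets. The arrays carried total RNA of CD4+ CD8+ double-positive thymocytes, the immature T cells of the thymus, from 2 groups of C57BL/6 mice aged 5 to 6 weeks. One group of 3 arrays (DP_Ets1_KO) came from Ets1-/- mice, whose gene for the transcription factor Ets1 is disrupted. The labels name no cell type or age to which the disruption is limited and do not describe the allele. The other group of 3 arrays (DP_WT) came from wild-type mice. All cells were fixed with formaldehyde and then enriched with magnetic beads for CD8 and next for CD4. The labels describe cohorts of litter mates as the biological replicates but do not say how many animals gave each array, and p-values measure the spread among these arrays.

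Semaphorins are secreted or membrane-bound proteins that share an extracellular sema domain, and plexins are their main receptors. The cytoplasmic part of a plexin acts as a GTPase-activating protein for small GTPases of the Ras and Rap kind, which lowers integrin adhesion and changes the actin skeleton, and neuropilins join plexins as co-receptors for most class 3 semaphorins. In the thymus, plexin-D1 is known as a receptor of double-positive thymocytes for semaphorin 3E, which takes part in the move of maturing thymocytes from cortex to medulla.

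Signals are given on the log2 scale of the deposited values, where a difference of 1 is a doubling. Probe sets differ in brightness, so no gene's level was set against another gene's. Median signals over all probe sets were 3.66, 4.31 and 4.19 on Ets1-/- replicates 1 to 3 and 4.21, 4.25 and 4.33 on wild-type replicates 1 to 3, and the median difference over all genes was -0.22. Differences are also given relative to that median. The Ets1 probe set had 9.27, 9.22 and 8.79 on the Ets1-/- arrays, against 9.11, 9.32 and 9.17 on the wild-type arrays. No source used here places the probes relative to the disrupted part of the gene. The Ets1 signal is therefore no check on the genotype labels, and each direction below is that of the arrays labelled Ets1-/-. Among markers of double-positive thymocytes, Cd4, Cd8a and Cd8b1 were at 11.08, 10.91 and 11.66 in Ets1-/- and at 10.94, 11.00 and 11.69 in wild type. The summed linear signal of 10 such markers was 14119 to 14953 in Ets1-/- and 14850 to 15196 in wild type. Limma called 1 of the 10, where it called 1.86% of all genes. The called marker was Ptcra, the pre-T-cell receptor chain, which was higher by 1.50 (adjusted p = 0.0282). That call was lost in 5 of the 6 fits with 1 array left out, all but the one without Ets1-/- replicate 1 (adjusted p of 0.066 to 0.116 in the 5). Dntt, Rag2 and Arpp21, which act in or mark this stage, differed by -0.46, -0.29 and -0.23 (adjusted p = 0.389, 0.581 and 0.658).

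On the Ets1-/- arrays the receptor Plxnd1 was 6.87-fold lower and the membrane semaphorin Sema7a 3.04-fold lower than on the wild-type arrays. The co-receptor Nrp1 was 6.61-fold higher. These are values of bulk RNA, and the part of each cell type in them was not tested. Sema4d was 1.35-fold lower and Plxnb2 was 2.28-fold higher, the second with a wide spread among the wild-type arrays. The other 5 members, Plxna1, Plxna2, Plxnc1, Sema3e and Sema4a, had overlapping groups. The groups did not overlap for 5 of the 10 members, where the share over all genes was 21.9%. The limma fit over all genes, with an adjusted p under 0.05 as the threshold, called 1.86% of all genes, 1.29% higher and 0.568% lower. Its calls include 3 of the 10 members, Nrp1, Plxnd1 and Sema7a. The members were chosen with this contrast known, so neither this count nor that of members without overlap is a test of them. Neither count is read against the share of all genes. Sema7a was not among the calls without Ets1-/- replicate 2 or without wild-type replicate 1 or 2.

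**Figure D1:**
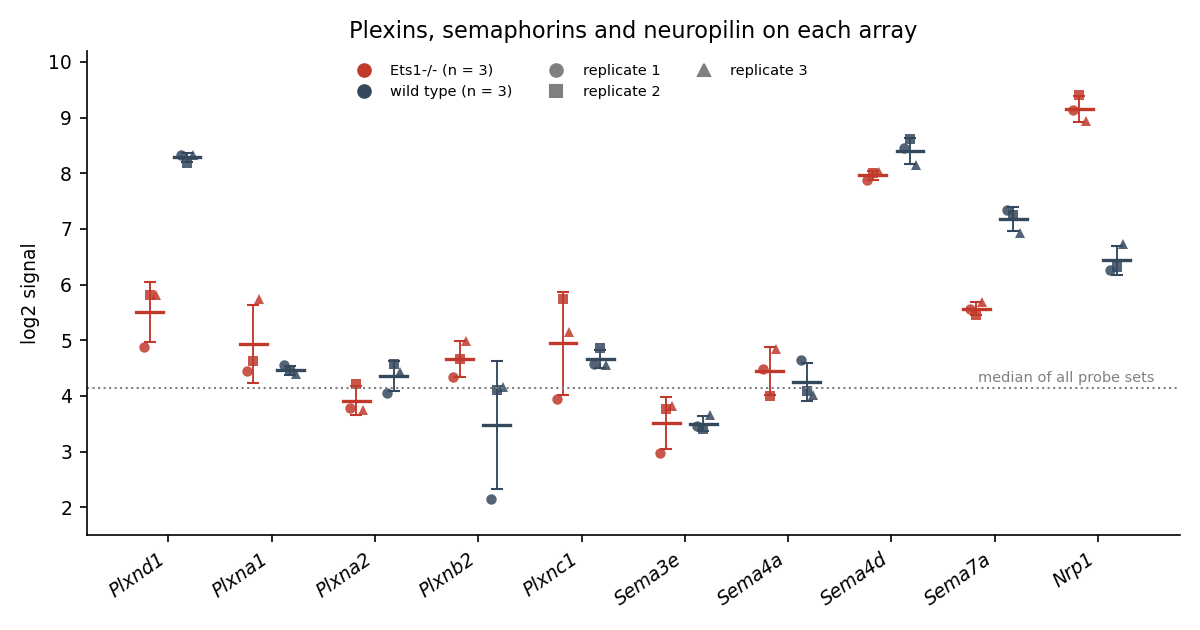
Log2 signal of the 10 members on each array, Ets1-/- left of wild type. Points are single arrays with the replicate number given by shape, horizontal bars are group means and error bars are SD (n = 3 each). The dotted line is the median over all probe sets. Plxnd1 and Sema7a lay lower in every Ets1-/- array than in any wild-type array, and Nrp1 lay higher in every Ets1-/- array.

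The promoter stretches of the 3 members with the widest gaps between the groups are shown because Ets1 is a DNA-binding factor whose family recognises a GGAA core. They are the 250 bases before the annotated start in the RefSeq table of GRCm38.p6, 5' to 3' on the strand of the gene. Capitals mark each GGAA and its reverse complement TTCC. Plxnd1 is at chr6:115995006-115995255 (minus strand), Sema7a at chr9:57939862-57940111 (plus strand) and Nrp1 at chr8:128358823-128359072 (plus strand).
Plxnd1: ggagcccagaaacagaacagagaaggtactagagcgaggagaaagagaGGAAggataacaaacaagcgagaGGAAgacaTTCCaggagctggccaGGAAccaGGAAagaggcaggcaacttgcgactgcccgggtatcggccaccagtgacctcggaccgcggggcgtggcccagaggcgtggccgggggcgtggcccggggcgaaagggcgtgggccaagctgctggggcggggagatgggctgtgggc
Sema7a: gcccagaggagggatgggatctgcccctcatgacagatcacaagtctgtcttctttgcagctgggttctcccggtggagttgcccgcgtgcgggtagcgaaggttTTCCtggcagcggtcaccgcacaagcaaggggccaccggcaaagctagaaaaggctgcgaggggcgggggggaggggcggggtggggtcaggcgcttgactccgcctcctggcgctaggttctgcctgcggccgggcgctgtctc
Nrp1: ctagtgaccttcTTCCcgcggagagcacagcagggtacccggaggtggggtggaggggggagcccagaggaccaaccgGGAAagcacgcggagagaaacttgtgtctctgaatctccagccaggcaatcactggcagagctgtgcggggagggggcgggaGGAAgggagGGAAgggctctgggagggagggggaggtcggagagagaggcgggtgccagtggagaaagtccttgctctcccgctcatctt
The Plxnd1 stretch held 5 cores, the Sema7a stretch 1 and the Nrp1 stretch 4. A core was present on either strand in 93.4% of the 32851 promoters of the table, with a median of 3, and 18% of promoters had 5 or more. Of the 10 members, 9 had an entry in the table, with 15 promoters among them, and a core was found in 14 of the 15. Plxna1 was the member without an entry, and Plxna2 was the member without a core in this window. The longer form CCGGAAG, which contains the core, was in 0 of these 15 promoters and in 6.91% of all promoters. The form CAGGAAG, which also contains it, was in 2 of the 15, 1 each of Sema3e and Sema4d, and in 10.8% of all promoters. With A before it and TG after it, the second form was in 0 of the 15 and in 0.374% of all. Both strands were searched in each case. A match is a description of the letters and does not show binding.

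Plxnd1, the plexin that binds semaphorin 3E without a neuropilin, had signals of 4.88, 5.81 and 5.81 on Ets1-/- replicates 1 to 3, against 8.33, 8.19 and 8.33 on wild-type replicates 1 to 3. The 3 wild-type arrays lay close together, and all Ets1-/- arrays were far below them, with replicate 1 the lowest. The mean was 5.5 ± 0.54 in Ets1-/- and 8.28 ± 0.08 in wild type (SD, n = 3 each), a difference of -2.78, or -2.56 relative to all genes. Ets1-/- replicate 1 was also the array with the lowest median over all probe sets, and without it the difference was -2.47. Plxnd1 is also expressed by blood vessel endothelium. The endothelial marker list had 0 of 8 markers called by limma, where it called 1.86% of all genes. At an unadjusted p under 0.05 there were 4, all lower. The summed linear signal of the list was 104 to 169 in Ets1-/- and 245 to 345 in wild type. All 8 differences were below 0, where the median over all genes was -0.22. Relative to that median the list median was -0.37 and Cdh5 was at 0.06. The brightest of the 8 was Pecam1, so the sum follows it more than the others. Pecam1, a surface protein also made by leukocytes, had 6.42 ± 0.45 in Ets1-/- and 7.68 ± 0.30 in wild type (SD, n = 3 each; limma adjusted p = 0.1), and it was called lower in 6 of 15 alternatives, none of which left out an array. Eng, Emcn and Plvap were at 3.17, 2.57 and 2.80 in Ets1-/- and 4.32, 3.27 and 3.46 in wild type (limma adjusted p = 0.106, 0.373 and 0.326), and their groups did not overlap. The defining markers Kdr, Cdh5 and Tek were at 2.53, 3.45 and 2.67 in Ets1-/- and 2.95, 3.61 and 3.03 in wild type. Esam was at 3.10 in Ets1-/- and 3.63 in wild type. The groups did not overlap for Kdr and Esam, and they overlapped for Cdh5 and Tek. The part of endothelial RNA in the Plxnd1 difference was not tested, and in such bulk RNA fewer cells of a type and less RNA per cell cannot be told apart.

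For the 2 ligands of plexin-D1 among the members, the groups overlapped. Sema3e, the secreted ligand, had 2.98, 3.77 and 3.81 on the Ets1-/- arrays, against 3.45, 3.40 and 3.65 on the wild-type arrays. The difference was 0.02, and with 1 array left out it lay between -0.13 and 0.29. Sema4a, a membrane semaphorin that binds plexin-D1 as well as B-class plexins and is known from dendritic cells and activated T cells, had 4.49, 4.00 and 4.85 in Ets1-/-, against 4.64, 4.09 and 4.01 in wild type. The wild-type values lay inside the range of the Ets1-/- values. The difference was 0.20, and it was 0.00 without Ets1-/- replicate 3.

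Sema7a, a semaphorin held in the membrane by a GPI anchor, had 5.57, 5.45 and 5.69 in Ets1-/-, against 7.34, 7.26 and 6.93 in wild type. Both groups were tight and far apart, with 5.57 ± 0.12 in Ets1-/- and 7.17 ± 0.22 in wild type (SD, n = 3 each). The difference was -1.61, or -1.39 relative to all genes. Semaphorin 7A binds a plexin and a beta-1 integrin. The plexin, Plxnc1, had 3.94, 5.75 and 5.15 in Ets1-/-, against 4.57, 4.85 and 4.56 in wild type. The Ets1-/- arrays lay on both sides of the wild-type range, with an SD of 0.92 against 0.17 in wild type, and the difference of 0.28 was -0.12 without Ets1-/- replicate 2. The integrin chains Itga1 and Itgb1 differed by -0.25 ± 0.34 and -0.19 ± 0.23 (SE), with limma adjusted p of 0.761 and 0.722.

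Sema4d, also called CD100, the semaphorin that T cells carry on their surface, had 7.87, 8.01 and 8.01 in Ets1-/-, against 8.45, 8.61 and 8.14 in wild type. Every Ets1-/- array was below every wild-type array, but the gap between 8.01 and 8.14 was small. The mean was 7.97 ± 0.08 in Ets1-/- and 8.4 ± 0.23 in wild type (SD, n = 3 each), a difference of -0.43, or -0.21 relative to all genes. Its lower-affinity receptor Plxnb2, a plexin found on many cell types including macrophages and B cells, had 4.34, 4.66 and 4.98 in Ets1-/-, against 2.15, 4.10 and 4.17 in wild type. Wild-type replicate 1 was far below the other 5 arrays, and the difference of 1.19 was 0.53 without it. With a pseudocount of 16 on the linear scale it was 0.54. The high-affinity receptor Plxnb1 was at 2.65 ± 0.46 in Ets1-/- and 2.79 ± 0.20 in wild type (SD, n = 3 each; limma adjusted p = 0.848), and Cd72, a further receptor on B cells, was not analysed here because no probe set named it alone.

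Nrp1, the co-receptor for class 3 semaphorins and for vascular endothelial growth factor, had 9.14, 9.41 and 8.94 in Ets1-/-, against 6.26, 6.32 and 6.73 in wild type. All Ets1-/- arrays were more than 2 log2 units above the brightest wild-type array. The mean was 9.16 ± 0.24 in Ets1-/- and 6.43 ± 0.26 in wild type (SD, n = 3 each), a difference of 2.72, or 2.94 relative to all genes. The second neuropilin, Nrp2, was at 3.16 ± 0.51 in Ets1-/- and 2.62 ± 0.35 in wild type (limma adjusted p = 0.534). The secreted ligand Sema3a was at 3.15 ± 0.26 in Ets1-/- and 3.57 ± 0.22 in wild type (limma adjusted p = 0.526), and Vegfa was at 3.76 ± 0.11 in Ets1-/- and 4.44 ± 0.30 in wild type (SD, n = 3 each; limma adjusted p = 0.275).

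The A-class plexins, which pair with neuropilins, differed little in the mean. Plxna1, known from dendritic cells, had 4.44, 4.63 and 5.74 in Ets1-/-, against 4.55, 4.45 and 4.39 in wild type. Ets1-/- replicate 3 alone stood apart, and the difference of 0.47 was 0.07 without it. A second probe set naming Plxna1 alone had 3.59, 4.73 and 3.78 in Ets1-/-, against 4.51, 3.98 and 3.49 in wild type, a difference of 0.04, so the high value on replicate 3 was not seen with it. The remaining 9 members had 1 probe set each. Plxna2, a receptor for class 6 and, with neuropilins, class 3 semaphorins, had 3.78, 4.22 and 3.75 in Ets1-/-, against 4.06, 4.57 and 4.43 in wild type. Its groups overlapped, with a difference of -0.44, or -0.22 relative to all genes.

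Nrp1 is carried by regulatory T cells of the thymus, by some dendritic cells and by macrophages, and markers of several of these cells differed between the groups. Of 13 macrophage and monocyte markers, 11 were called higher and 0 lower by limma, where it called 1.29% of all genes higher and 0.568% lower. These shares over all genes apply to each marker list here and in the next paragraph. The summed signal of the 13 was 3956 to 5325 in Ets1-/- and 751 to 916 in wild type. Csf1r, the receptor for the macrophage growth factor, Ctss, C1qa and Mpeg1 had the smallest p, with differences of 3.31, 2.78, 2.85 and 3.05. Of 10 dendritic cell markers 5 were called higher and 0 lower, with sums of 2984 to 3304 in Ets1-/- and 409 to 454 in wild type. The 5 were Itgax, Irf8, H2-Eb1, H2-Ab1 and H2-Aa, which macrophages or B cells also express, while the defining dendritic markers Flt3, Zbtb46, Xcr1 and Batf3 were at 3.58, 4.37, 3.58 and 4.81 in Ets1-/- and 3.55, 4.75, 4.73 and 5.06 in wild type. Among 7 markers of plasmacytoid dendritic cells, 2 were called higher, Irf8 and Bst2 (1 with any array left out but Ets1-/- replicate 1), with sums of 1169 to 1404 in Ets1-/- and 630 to 808 in wild type. Spib and Tcf4 differed by 3.33 and 0.89 (limma adjusted p = 0.0578 and 0.213). The more specific Siglech was at 5.59 ± 0.59 in Ets1-/- and 4.78 ± 0.23 in wild type (SD, n = 3 each; limma adjusted p = 0.35).

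Of 6 regulatory T-cell markers, 1 was called higher, the interleukin-2 receptor chain Il2ra, at 8.71 ± 0.06 in Ets1-/- and 5.55 ± 0.84 in wild type (SD, n = 3 each; limma adjusted p = 0.00864). The defining factor Foxp3 was at 5.42 ± 0.45 in Ets1-/- and 5.39 ± 0.25 in wild type (SD, n = 3 each; adjusted p = 0.969), and Ctla4, Ikzf4 and Tnfrsf18 differed by 0.10, 0.26 and -0.29 (adjusted p = 0.891, 0.638 and 0.703). The summed signal was 1858 to 2261 in Ets1-/- and 861 to 1109 in wild type, and its brightest marker was Ikzf2 (Helios), at 10.46 ± 0.21 in Ets1-/- and 9.44 ± 0.10 in wild type (SD, n = 3 each; limma adjusted p = 0.0755). That sum therefore follows Ikzf2 and Il2ra and does not describe the other 4 markers. The groups did not overlap for Ikzf2, and limma called it higher in 6 of 15 alternatives, none of which left out an array. Of 9 B-cell markers 5 were called higher (3 without wild-type replicate 1 or Ets1-/- replicate 3), with sums of 404 to 865 in Ets1-/- and 88 to 118 in wild type. Fcrla, Ms4a1, the B-cell receptor chain Cd79a and Ebf1 had the smallest p, with differences of 3.05, 6.14, 4.2 and 2.08. Of 7 genes of mature single-positive T cells, 5 were called higher, with sums of 953 to 1189 in Ets1-/- and 177 to 245 in wild type. Klf2, S1pr1, Ms4a4b and Gimap3 led them, with differences of 3.60, 3.54, 2.94 and 3.07, and the count was 3 without any one of the Ets1-/- arrays. The 7 measured markers of thymic epithelium had 0 calls by limma and 0 at an unadjusted p under 0.05, with Foxn1, Dll4, Krt18 and Aire at differences of -0.46, -0.53, 1.10 and -0.42. The part of any of these cells in the values of Nrp1, Plxna1, Plxnb2 and Sema4a was not tested. On Ets1-/- replicate 3, Plxnb2 and the brightest Plxna1 probe set were highest. There 12 of the 13 macrophage markers and 8 of the 9 B-cell markers had their highest value of all 6 arrays. The same held for 3 of 10 dendritic cell, 2 of 7 plasmacytoid, 1 of 6 regulatory T-cell and 3 of 7 mature T-cell markers. In the double-positive, endothelial and thymic epithelium lists it held for 1 of 10, 1 of 8 and 0 of 7. It also held for 15 of the 75 family, partner, effector and protease genes described below, and the share over all genes was not computed. The second Plxna1 probe set was at 3.78 on that array, below the 4.73 on Ets1-/- replicate 2. Nrp1 had its lowest Ets1-/- value on Ets1-/- replicate 3.

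**Figure D2:**
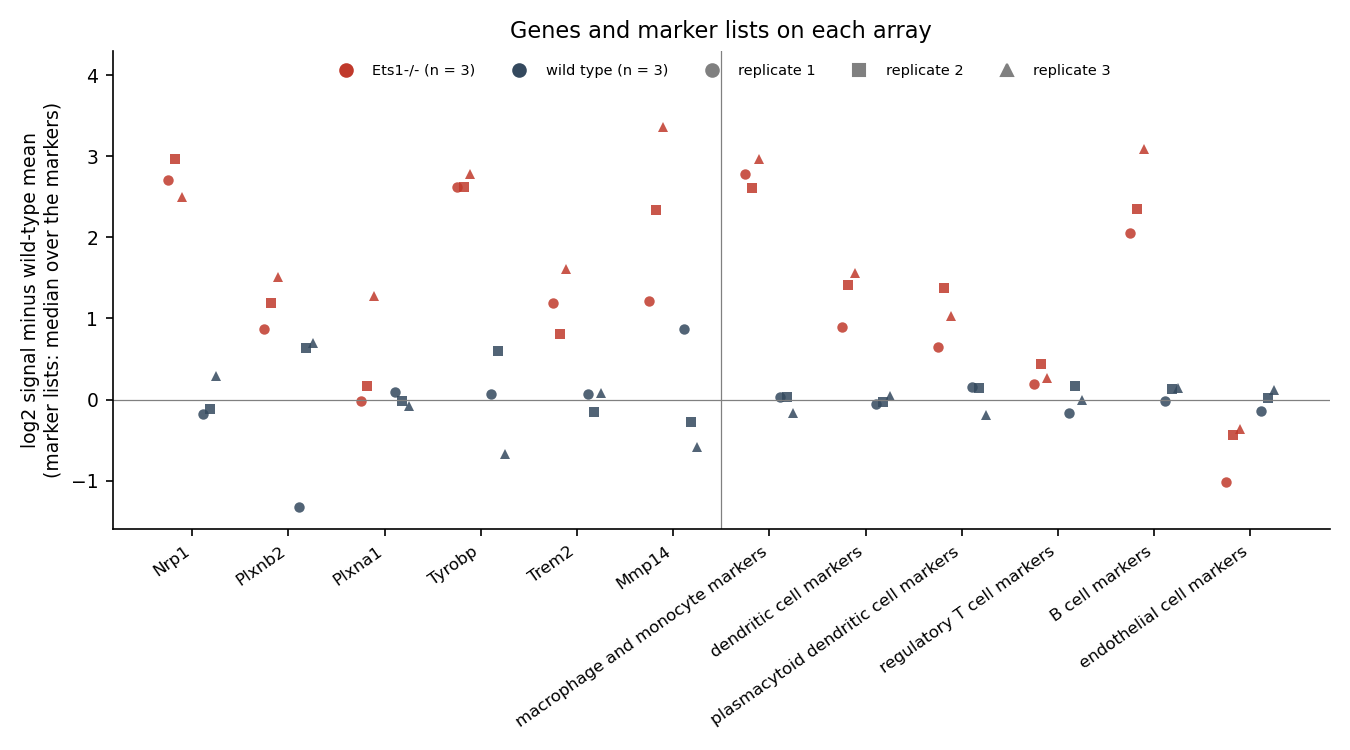
Log2 signal minus the wild-type mean for Nrp1, Plxnb2, Plxna1, 3 genes that work with plexins or semaphorins, and the median of 6 marker lists, on each array (Ets1-/- left of wild type). Each point is 1 array, with the replicate number given by shape. The macrophage and monocyte median lies between 2.61 and 2.97 in Ets1-/-, and the endothelial median between -1.01 and -0.36.

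All 21 further plexins, semaphorins and Nrp2 were measured, and limma called 0 of them, where it called 1.86% of all genes. At an unadjusted p under 0.05 there was 1 (Plxnb3, lower). The count of calls was also 0 under each of the 15 alternatives, though the filter on signal tested only 7 of the 21. Their differences ran from -0.62 to 0.56 with a median of -0.21, against -0.22 over all genes. The groups did not overlap for 4 of the 21 (19.0%, against 21.9% of all genes). Their means lay between 2.65 and 5.72 in Ets1-/- and between 2.62 and 5.92 in wild type. The smallest p belonged to Plxnb3, a B-class plexin, at 3.57 ± 0.28 in Ets1-/- and 4.19 ± 0.14 in wild type (SD, n = 3 each; adjusted p = 0.324). Sema6d, a class 6 ligand of plexin-A1, followed with 4.51 ± 0.31 in Ets1-/- and 3.94 ± 0.17 in wild type (adjusted p = 0.397). The next were Sema6a and Sema3c, with differences of -0.57 and -0.50 (adjusted p = 0.427 and 0.491).

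**Figure D3:**
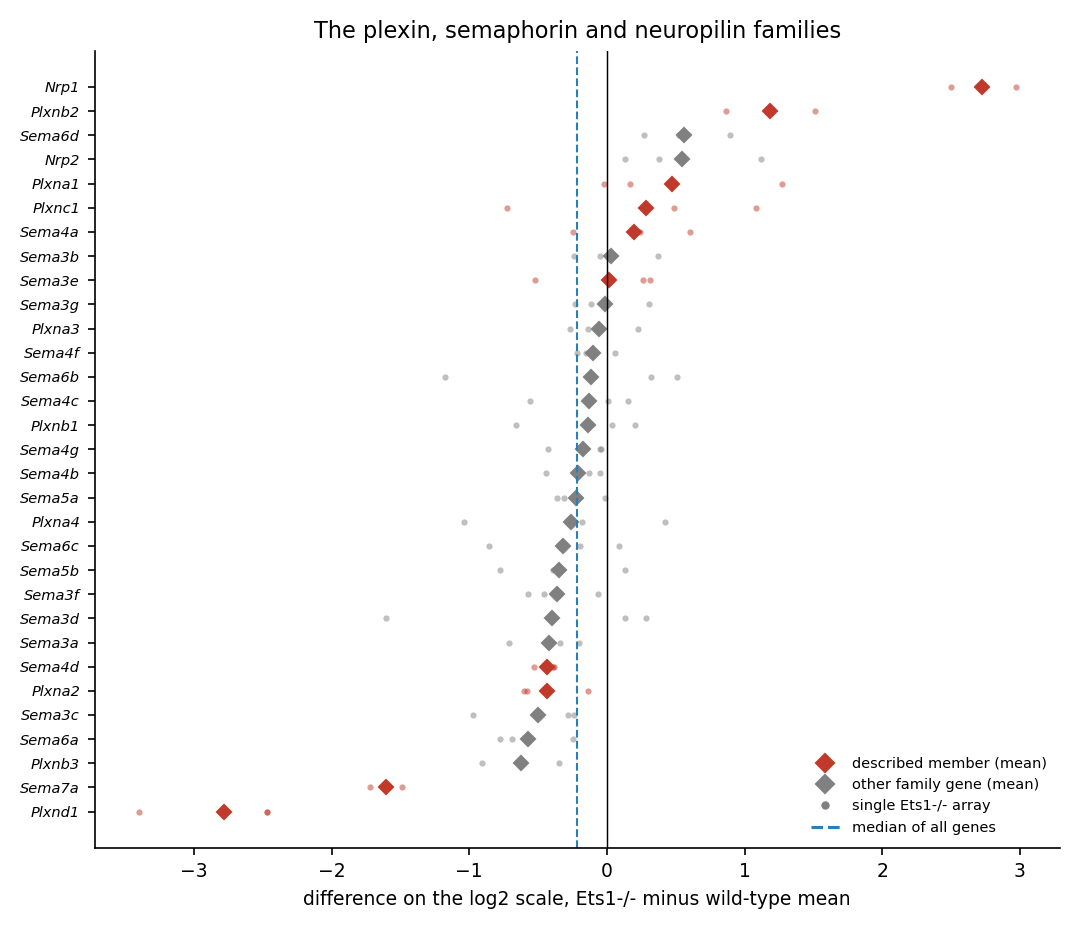
Difference on the log2 scale between Ets1-/- and the wild-type mean for all 31 plexin, semaphorin and neuropilin genes, ordered by size. Diamonds are means over 3 Ets1-/- arrays, small points are the single Ets1-/- arrays, red marks the 10 members and grey the other 21 genes, and the dashed line is the median of all genes. Plxnd1 and Sema7a lie at the low end with -2.78 and -1.61, Nrp1 at the high end with 2.72, and the 21 other genes between -0.62 and 0.56.

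The genes that work with these ligands and receptors were taken as 3 further lists: co-receptors and other binding partners, intracellular effectors, and the proteases that cut or shed semaphorins. Together with the rest of the families they held 79 genes, of which 75 were measured. Limma called 2 of the 75 (2.67%, against 1.86% of all genes), both higher, and 11 passed an unadjusted p of 0.05. The called partner was Tyrobp (DAP12), an adaptor that joins plexin-A1 through Trem2 in myeloid cells and osteoclasts. It had 9.30, 9.30 and 9.45 in Ets1-/-, against 6.75, 7.27 and 6.00 in wild type, and rose by 2.68 ± 0.34 (SE; adjusted p = 0.00811). Tyrobp is made by macrophages and natural killer cells, and the macrophage markers given above were higher on the same arrays. The part of these cells in the Tyrobp difference was not tested. Its partner Trem2 had 4.71, 4.32 and 5.13 in Ets1-/-, against 3.59, 3.36 and 3.60 in wild type. The groups did not overlap, but the difference of 1.20 ± 0.27 (SE) missed the threshold (adjusted p = 0.0806, and 0.0307 to 0.273 under the alternatives). The other partners had adjusted p of 0.275 or more, beginning with the growth factors Vegfa and Vegfb at -0.69 and -0.81 (adjusted p = 0.275 and 0.293). Plexin-D1 partners Gipc1 and Sh3bp1 were at -0.33 and -0.62 (adjusted p = 0.689 and 0.586).

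Of 29 measured effectors, limma called 1 (3.45%, against 1.86% of all genes). Arhgef12, an exchange factor for RhoA that binds B-class plexins, had 4.29, 4.78 and 4.81 in Ets1-/-, against 3.03, 3.60 and 2.94 in wild type. It rose by 1.44 ± 0.28 (SE; adjusted p = 0.0499). The call was at the threshold: it was lost without any one of the wild-type arrays (adjusted p = 0.175, 0.0651 and 0.171 without replicates 1, 2 and 3) and without Ets1-/- replicate 2 or 3 (adjusted p = 0.168 and 0.149). With a pseudocount of 16 its difference was 0.70 (adjusted p = 0.0312). The kinase Fyn, which acts below A-class plexins, was at 5.97 ± 0.14 in Ets1-/- and 6.88 ± 0.08 in wild type (SD, n = 3 each; adjusted p = 0.0957). It was called lower in 3 of 15 alternatives, none of which left out an array. Rnd3 differed by 0.81 and the oxidoreductase Mical1 by -0.74 (adjusted p = 0.24 and 0.306). Among the other small GTPases of the list, the differences were -0.01 for Rras, 0.01 for Rap1b, 0.21 for Mras, -0.40 for Rac1, 0.08 for Rhoa, -0.05 for Arf6, -0.49 for Rnd1 and -0.33 for Rnd2, with limma adjusted p of 0.479 or more. The actin regulator Cfl1, cofilin, differed by -0.14 and the collapsin response mediator Dpysl2 by -0.58 (adjusted p = 0.781 and 0.448).

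Of the 7 proteases, limma called 0, where it called 1.86% of all genes, and 1 had an unadjusted p under 0.05. That one was Mmp14, a membrane metalloprotease that sheds Sema4d in tumour cells, with 4.44, 5.55 and 6.57 in Ets1-/-, against 4.08, 2.94 and 2.63 in wild type. The lowest Ets1-/- array was close to the highest wild-type array, and the difference of 2.30 ± 0.58 (SE) had an adjusted p of 0.117. Limma called Mmp14 higher in 3 of 15 alternatives, none of which left out an array. Pcsk7, Adam10 and Pcsk6 differed by -0.59, -0.28 and -0.28 (adjusted p = 0.538, 0.645 and 0.69), and Furin, which processes class 3 semaphorins, by -0.28 (adjusted p = 0.75).

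The genes nearest to Plxnd1 in their course over the 6 arrays were ranked by the root mean square difference after each gene had its own mean subtracted. The 5 nearest of 19236 genes were the receptor tyrosine phosphatase Ptpre (0.16 log2 units), the tudor-domain gene Tdrd5 (0.21), Nbeal2 (0.22), the pseudogene Bambi-ps1 (0.25) and the lymphotoxin chain Ltb (0.26). Ptpre had 4.00, 4.85 and 5.35 in Ets1-/-, against 7.58, 7.37 and 7.59 in wild type. Like Plxnd1, all 5 genes were lowest on Ets1-/- replicate 1, the array with the lowest median over all probe sets (3.66). Among the other members Sema7a was the nearest to Plxnd1, at 0.68 and rank 116, and Nrp1 the most distant, at 2.78. The ranking uses the same arrays that chose Plxnd1 and is a description over 6 arrays.

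**Figure D4:**
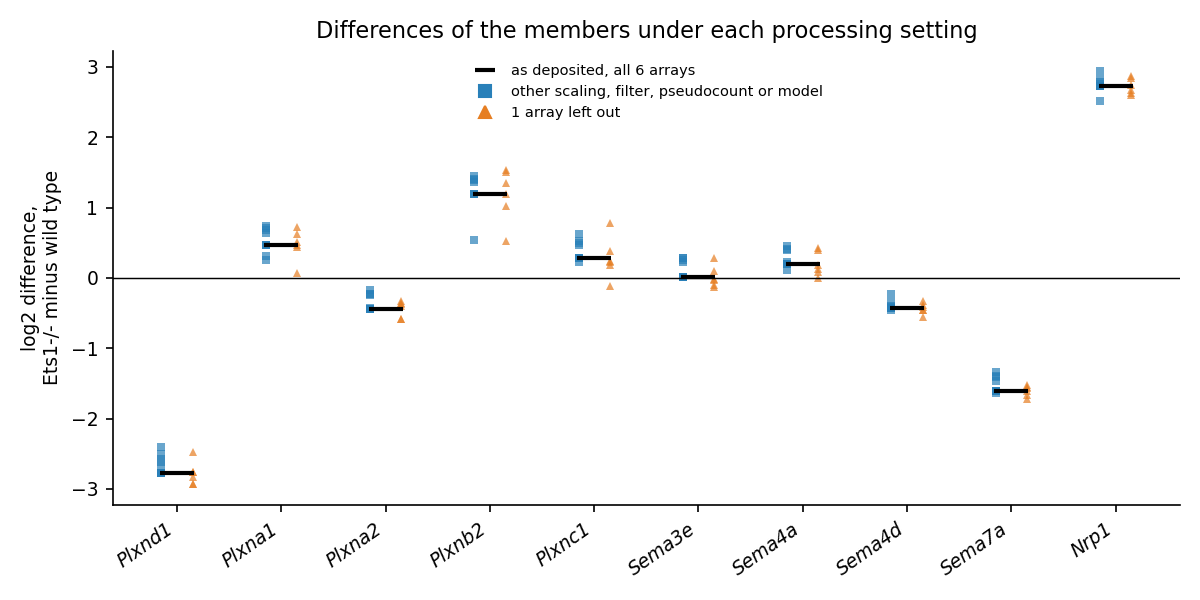
Log2 difference, Ets1-/- minus wild type, of each member as deposited (black bar), under other scalings, filters, probe set rules, pseudocounts or models (squares) and with 1 array left out (triangles). Plxnd1 stays between -2.94 and -2.40, Sema7a between -1.73 and -1.34 and Nrp1 between 2.52 and 2.94, while Plxnc1 and Sema3e reach both sides of 0 and Sema4a reaches 0.00.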

How the data were processed

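Total RNA of 6 samples was hybridised to Affymetrix arrays. The authors deposited a table of log2 values; that they are log2 was taken from their span, -15.86 to 16.36. The submitters' processing notes name affy, and no source used here gives its version, the background correction, the normalization or a genome build. The small number of arrays limits precision.

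The platform annotation named 1 gene for 23521 probe sets, several for 1814 and none for 16010. Limma 3.58.1 under R 4.3.3 fitted Ets1-/- minus wild type without covariates or filter, with two-sided p values and Benjamini-Hochberg adjustment across 22180 genes. Members, lists and tests were chosen with earlier results of these data known. The text names all members, Ets1, every called pathway gene or else up to 4 per list with the smallest p, up to 4 markers per cell type by the same order, and the 5 profiles nearest to Plxnd1 (clone, Riken and Gm names skipped). Nrp2, Sema3a, Plxnb1, Kdr, Esam, Ctla4, Gipc1, Sh3bp1, the integrin chains, the small GTPases, Cfl1, Dpysl2, Furin, Cd4, Cd8a, Cd8b1, Foxp3, Siglech, Cdh5, Tek, Itgax, Flt3, Zbtb46, Xcr1 and Batf3 were added for their known roles after their values were seen. The fit was tested on simulated data, with 200 changed genes of 22180 in each of 20 runs. It recovered 4% of changes of 1 log2 unit, 54% of 2, 82.8% of 3 and 94.2% of 4. Of its calls 3.65% were wrong. A gene that was not called is therefore not shown to be unchanged. The simulated noise had the same spread in both groups and no shift between arrays. In these data the median SD over all genes was 0.41 in Ets1-/- and 0.25 in wild type, so the simulated shares need not hold for them. Alternatives were another probe set rule, a filter, 3 scalings, an intensity trend with robust prior, array weights, a pseudocount of 16, a replicate block and the omission of each array.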

Additional observations from a re-analysis of the deposited data

How the results depend on the processing

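The members' differences kept their direction under all alternatives run, except Plxnc1 (-0.12 without Ets1-/- replicate 2), Sema3e (4 alternatives, down to -0.13) and Sema4a (0.00 without Ets1-/- replicate 3). Scaling moved the median difference of all genes from -0.22 as deposited to -0.05 with quantile normalization, -0.01 with median centring and 0.00 with cyclic loess; with median centring Sema4d was at -0.22 and Sema7a at -1.39, and Sema7a was at -1.41 with cyclic loess. Low signals limit the sizes: with the pseudocount of 16 Plxnb2 was at 0.54 and Sema7a at -1.34.

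Over all genes 413 were called (69.5% higher), against 798 with quantile normalization, 745 with median centring, 777 with cyclic loess, 1172 with an intensity trend and robust prior (52.7% higher), 1019 with array weights and 907 with a pseudocount of 16 (53.4% higher), and 190 to 379 with 1 array left out. The pathway lists had 2 calls, against 4 with median centring, 5 with the intensity trend, 5 with array weights, 1 with the replicate block and 1 to 2 with 1 array left out. In the replicate block fit, which took the replicate numbers as pairs, 311 genes and 1 pathway gene were called. Same-numbered arrays did not deviate together (r of -0.072, -0.008 and -0.048), so the numbers were not read as pairs. Arhgef12 lost its call with the block (adjusted p = 0.0803). The Ets1 difference of -0.10 was 0.108 with median centring and -0.194 to 0.049 with 1 array left out. The causes of these shifts were not tested.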
